A study of Mus musculus with 6 samples.

Results

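Spliceosomal small nuclear RNAs (snRNAs) and small Cajal body RNAs (scaRNAs) were followed through an eCLIP experiment on mouse Gtsf1, also called Asterix. The members were all features whose annotated class in the deposited count files is snRNA or scaRNA. They numbered 830 (794 snRNA and 36 scaRNA features) of 1753368 features with any read. The choice used the annotation and no measured value.

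Gtsf1, a small zinc-finger protein known from the piRNA pathway, carried a TEV-Strep tag at its C-terminus, and its plasmid (pEF) used the EF-1alpha promoter. Cells of the mouse embryonal carcinoma line P19 were transiently transfected with 30 µg of this plasmid, so every library came from cells that had received tagged Gtsf1, and no library of untransfected cells was compared here. Crosslinked cells were irradiated with ultraviolet light of 254 nm (400 mJ), which joins RNA covalently to the proteins it touches, and non-crosslinked cells were not. After RNase I digestion, MagStrep beads pulled down the tagged protein, and part of each lysate was set aside as input. The 6 libraries were 2 inputs and 2 pull-downs of crosslinked cells, 1 non-crosslinked input and 1 non-crosslinked pull-down. The labels do not say whether the replicates were separate cultures, so p-values measure only the spread between these libraries, and the non-crosslinked libraries had no replicates.

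Each snRNA is packed with proteins into a small nuclear ribonucleoprotein (snRNP). U1 and U2 mark the start of an intron and its branch point, U4, U5 and U6 join them as a tri-snRNP, and U11 and U12 do the work of U1 and U2 on the rare minor introns. U7 is not a splicing RNA: it guides the trimming of histone mRNA ends. The scaRNAs stay in Cajal bodies of the nucleus, where they guide the methylation and pseudouridylation of snRNAs. Mouse chromosomes hold many near-identical snRNA copies and many degenerate ones, and most copies carry a predicted-gene name (Gm and a number) that does not tell the family.

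Levels are given in RPM (the deposited measure, which scales all reads of a library, unannotated ones included, to 1000000). The libraries held between 13168593 and 18418166 reads, so that 1 read was worth between 0.0543 and 0.0759 RPM. The mean over the 4 crosslinked libraries reached 1 RPM, the level required for testing, for 161 snRNA and 17 scaRNA features. A feature or sum was called where edgeR's quasi-likelihood test of crosslinked pull-downs against crosslinked inputs gave an adjusted p under 0.05, and log2 ratios are pull-down over input. Families with 1 named feature (U2, U5, U7, U11 and U12) were tested in the fit with snRNAs summed by name. The other 633 snRNA and 19 scaRNA features had fewer reads, and 201 and 5 of them had reads in every library. A RefSeq entry of the same symbol (GRCm38.p6) was found for 753 of the 830 members. The Gtsf1 pre-mRNA feature had 46.9 and 46.3 RPM in the crosslinked inputs, 102 and 210 RPM in both crosslinked pull-downs, and 49.2 and 40.6 RPM in the non-crosslinked input and pull-down. Of the P19 markers, Pou5f1 had between 4.72 and 8.34 RPM, Sox2 between 3.04 and 7.41 RPM (1 exon) and Lin28a between 0.948 and 2.23 RPM, while Tdgf1 stayed at or below 1.32 RPM, Zfp42 at or below 0.0316 RPM, and the germ cell genes Ddx4, Dazl, Piwil2 and Mael at or below 0.163 RPM.

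The snRNA class took up a smaller share of the reads in every pull-down than in any input. It held 4.77% and 3.39% of the reads of both crosslinked inputs, 2.47% and 1.99% of both crosslinked pull-downs, 4.30% of the non-crosslinked input and 2.08% of the non-crosslinked pull-down. The pull-down mean, 2.23% ± 0.338 (SD, n = 2), was 0.546 times the input mean of 4.08% ± 0.980 (SD, n = 2) with crosslinking, and the corresponding ratio without crosslinking was 0.484. The crosslinked ratio was 0.658 without crosslinked input 1 and 0.467 without crosslinked input 2. The scaRNA class was far smaller, with 0.0154% and 0.0162% of the crosslinked input reads, 0.00942% and 0.0128% of the crosslinked pull-down reads, and 0.0119% and 0.00843% of the non-crosslinked input and pull-down. Its ratios were 0.705 with and 0.707 without crosslinking. Among reads outside rRNA, the snRNA ratio was 0.529 with and 0.490 without crosslinking. A two-sided exact permutation test gave p = 0.33 for both classes, which is the smallest p that 2 libraries against 2 allow. The 95% Wilson interval of the largest share ran from 4.76% to 4.78% and that of the smallest from 0.00795% to 0.00894%, and such intervals cover counting error only.

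**Figure D1:**
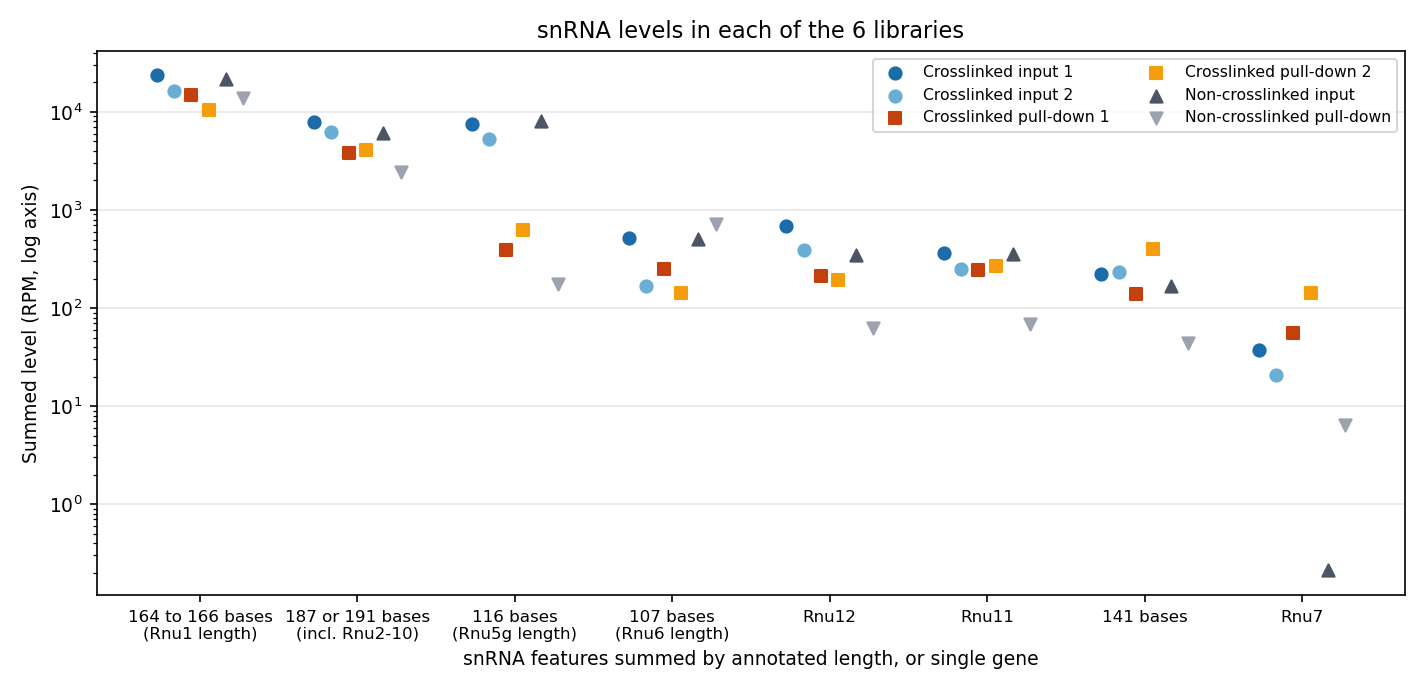
Level in RPM (log axis) of snRNA features summed by annotated length, or of single genes, with 1 point for each of the 6 libraries (circles, crosslinked inputs; squares, crosslinked pull-downs; triangles, non-crosslinked input and pull-down). The sum of 116-base features falls from 5242 RPM or more in the inputs to 621 RPM or less in the pull-downs, while Rnu7 lies at 0.212 RPM in the non-crosslinked input.

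Among the features with a family in their name, U1 held the most reads, and it was not called in either direction. Rnu1a1 (chr11:87422867-87423030, 164 bases) had 1850 and 1333 RPM in the crosslinked inputs, 1014 and 655 RPM in both crosslinked pull-downs, and 1939 and 1131 RPM in the non-crosslinked input and pull-down. Both pull-downs lay below both inputs, but the log2 ratio of -0.84 (SE 0.28, edgeR adjusted p = 0.134) did not pass the test. Counting Rnu1a1 itself, 7 features stayed within 2% of it in every library. Reads that match several copies were divided among them, so these 7 features (Rnu1a1, Gm23804, Gm22068, Gm22634, Gm22317, Gm25679 and Gm26444, each among the 12 snRNA features with the highest mean) are not separate measurements. Among the other members of those 12, Gm24924 had 1318 and 856 RPM in the crosslinked inputs and 978 and 585 RPM in the pull-downs, and its groups overlapped. Gm26244 differed little from it, with 1310, 851, 977 and 584 RPM. Gm24830 (1462, 938, 819 and 695 RPM) and Rnu1b6 (1394, 888, 818 and 690 RPM) had both pull-downs below both inputs, with log2 ratios of -0.57 and -0.50 (edgeR adjusted p = 0.253 and 0.315).

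The 4 features with U1 in their gene name (Rnu1a1, Rnu1b1, Rnu1b2 and Rnu1b6) summed to 4821 and 3318 RPM in the crosslinked inputs, 2997 and 2332 RPM in the pull-downs, and 4109 and 2680 RPM in the non-crosslinked pair. The pull-downs were again the lower group without overlap. The log2 ratio was -0.52 (SE 0.23, edgeR adjusted p = 0.254), and without crosslinked input 2 it was -0.75 and passed (adjusted p = 0.0199). Among all tested features and these sums, 6.44% were called higher and 3.6% lower. All 44 features annotated with the lengths of the Rnu1 genes, 164 to 166 bases, summed to 23550, 16285, 14923 and 10560 RPM in the crosslinked libraries (log2 ratio -0.55, SE 0.25, edgeR adjusted p = 0.251). When crosslinked input 2 was left out this sum passed (log2 ratio -0.78, edgeR adjusted p = 0.00631), and it did not when any other crosslinked library was. Grouping by annotated length was chosen after the names were seen and makes no claim that each such feature is a U1 gene.

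U2 snRNA fell in the pull-downs by edgeR. Rnu2-10 (chr11:101658238-101658424, 187 bases) had 1345 and 1063 RPM in the crosslinked inputs, 498 and 543 RPM in both crosslinked pull-downs, and 1072 and 352 RPM in the non-crosslinked input and pull-down. Inputs and pull-downs were well apart with and without crosslinking. The crosslinked log2 ratio was -1.12 (SE 0.19, edgeR adjusted p = 0.0153), so the pull-downs kept 43.2% of the input level with crosslinking and 32.8% without. DESeq2 gave -0.90 and an adjusted p of 0.0748, and as a single feature Rnu2-10 lost its edgeR call without pull-down 1 (-1.04, adjusted p = 0.0707). Counting Rnu2-10, 4 features stayed within 2% of it in every library. The 14 features of 187 or 191 bases together gave 7887 and 6246 RPM in the crosslinked inputs against 3822 and 4054 RPM in the pull-downs (log2 ratio -0.75, SE 0.19, edgeR adjusted p = 0.0558), and that sum passed when crosslinked input 2 was left out (-0.90, adjusted p = 0.00241).

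U5 snRNA showed the steepest loss among the sums by name. Rnu5g (chr9:65201726-65201841, 116 bases), a core part of the tri-snRNP, had 1846 and 1309 RPM in the crosslinked inputs but 76.1 and 111 RPM in both crosslinked pull-downs. In the non-crosslinked pair it went from 1901 RPM in the input to 27.4 RPM in the pull-down. Every pull-down was more than 10 times below every input. The crosslinked log2 ratio was -3.98 (SE 0.30, edgeR adjusted p = 0.00041), and the pull-downs kept 5.94% of the input level with crosslinking and 1.44% without. Leaving out any 1 crosslinked library kept this call, with log2 ratios from -4.29 to -3.72.

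Most other tested features of the same annotated length fell too, as did 1 feature without a RefSeq length. Reads that match several copies were divided among them, so these features may not be separate measurements. Gm25099 had 2283 and 1581 RPM in the crosslinked inputs, 71.7 and 138 RPM in the pull-downs, and 2430 and 33.1 RPM in the non-crosslinked pair, a log2 ratio of -4.10 (SE 0.40, edgeR adjusted p = 0.00129). Gm25313 had 1626, 1140, 53.5 and 114 RPM, Gm23287 had 658, 453, 43.3 and 66.1 RPM, and Gm24871, which has no RefSeq length, had 786, 556, 53.5 and 90.2 RPM in the same order of crosslinked libraries. With Rnu5g these were the 5 steepest falls of the class, with log2 ratios from -4.10 to -3.12. Gm23143 (-2.56) and Gm22265 (-2.35) were called lower too, so that 6 of the 7 tested 116-base features fell. Of all tested features 3.5% fell, and of those with a mean of 100 RPM or more 30.2%. The exception was Gm25007, annotated as a pseudogene, which rose from 0.179 and 0.141 RPM in the inputs to 2.32 and 4.59 RPM in the pull-downs (log2 ratio 4.39, edgeR adjusted p = 0.00533). With inputs under 1 RPM it entered the test through its pull-downs, so the level required for testing fixed its direction (3.80 without pull-down 2).

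The make-up of the snRNA reads differed between inputs and pull-downs in several length groups. Features of 164 to 166 bases held 48.1% to 50.9% of the snRNA reads in the inputs and 53.1% to 67.3% in the pull-downs. Features of none of the summed lengths, apart from Rnu7, Rnu11 and Rnu12, held 3.13% to 4.09% and 6.31% to 8.54%. The 116-base features went the other way. These features held 15.9% and 15.5% of the snRNA reads in the crosslinked inputs, 1.59% and 3.12% in both crosslinked pull-downs, 18.9% in the non-crosslinked input and 0.836% in the non-crosslinked pull-down. For every 100 reads of the 164 to 166-base features there were 32.3 and 32.2 reads of the 116-base features in the crosslinked inputs, 2.62 and 5.88 in both crosslinked pull-downs, and 37.2 and 1.24 in the non-crosslinked input and pull-down. The inputs lay close together on this ratio, while pull-down 2 held more than 2 times the value of pull-down 1. Their sum had a log2 ratio of -3.57 (SE 0.32, edgeR adjusted p = 0.000762) and passed without each crosslinked library in turn. Among features and sums by length, 6.44% were called higher and 3.59% lower.

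**Figure D2:**
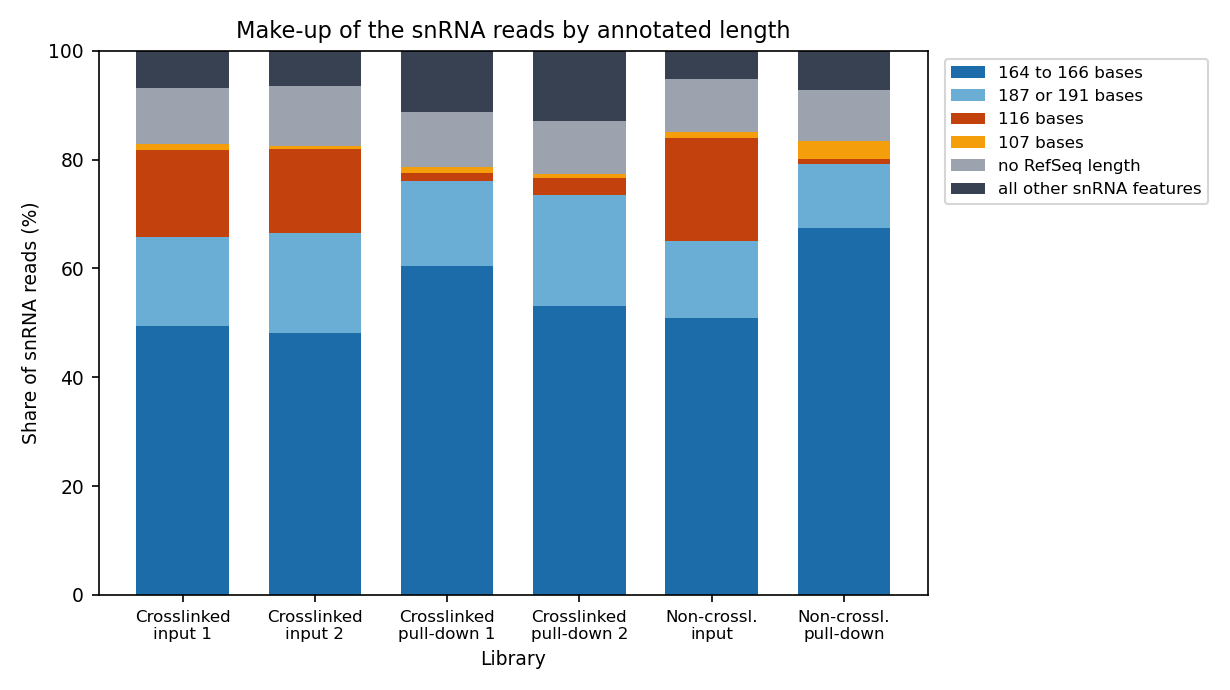
Share of snRNA reads (%) in each of the 6 libraries, split by the annotated length of the feature, where each bar adds up to all snRNA reads of that library. The segment of 116-base features takes 15.5% to 18.9% in the inputs and 0.836% to 3.12% in the pull-downs.

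U6 snRNA gave few reads and no call. Rnu6 (chr17:13432033-13432139, 107 bases), which pairs with U2 in the catalytic centre of the spliceosome, had 8.40 and 2.54 RPM in the crosslinked inputs, 3.43 and 1.51 RPM in both crosslinked pull-downs, and 9.49 and 13.0 RPM in the non-crosslinked input and pull-down. The 2 inputs differed more from each other than the groups did. The sum of Rnu6 and Rnu6-ps2 had a log2 ratio of -1.05 (SE 0.59, edgeR adjusted p = 0.36). It was 0.03 without crosslinked input 1 (adjusted p = 0.984) and -1.66 without crosslinked input 2 (adjusted p = 0.00199), so crosslinked input 1 set its direction.

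Crosslinked input 1 also held more reads than crosslinked input 2 across the features of Rnu6's length. The 317 features of 107 bases summed to 514 and 167 RPM in the crosslinked inputs, 249 and 141 RPM in the pull-downs, and 507 and 712 RPM in the non-crosslinked input and pull-down. All 61 of them that were tested had more RPM in crosslinked input 1 than in crosslinked input 2. The log2 ratio of the sum was -0.71 (SE 0.52, edgeR adjusted p = 0.474), 0.29 without crosslinked input 1 (adjusted p = 0.802) and -1.30 without crosslinked input 2 (adjusted p = 0.0127). Only Gm23191 (log2 ratio 1.87) and Gm22951 (0.92) of this length were called, both higher. Gm23191 had inputs of 0.754 and 0.458 RPM and entered the test through its pull-downs, while Gm22951 had 2.05 and 1.60 RPM and lost its edgeR call without crosslinked input 2 (adjusted p = 0.0962) or without pull-down 1 (0.0741). Without crosslinked input 2 the number of 107-base features called lower went from 0 to 48 while 1 was called higher, against 5.37% lower and 6.91% higher of all tested features. Reads were divided among many copies, so these are not 61 separate measurements.

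Of the minor spliceosome's RNAs, U12 fell in the crosslinked pull-downs and U11 did not pass. Rnu12 (chr15:83149645-83149794, 150 bases) had 683 and 394 RPM in the crosslinked inputs, 212 and 193 RPM in both crosslinked pull-downs, and 346 and 62.5 RPM in the non-crosslinked pair. Its groups did not overlap and its log2 ratio was -1.32 (SE 0.28, edgeR adjusted p = 0.0325). The call was lost without crosslinked input 1 (log2 ratio -0.88, adjusted p = 0.063), without pull-down 1 (-1.37, 0.0542), without pull-down 2 (-1.26, 0.0802) and with TMM factors, another scaling of the library sizes (-1.10, 0.0623). Rnu11 (chr4:132270079-132270186, 108 bases) had 364 and 253 RPM in the crosslinked inputs and 247 and 270 RPM in both crosslinked pull-downs, which overlapped. In the non-crosslinked pair it stood at 354 RPM in the input and 68.5 RPM in the pull-down, so 1 of its 6 values, the pull-down without crosslinking, was low. The crosslinked log2 ratio of Rnu11 was -0.16 (SE 0.22, edgeR adjusted p = 0.719) and turned to 0.06 with TMM factors.

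The crosslinked ratio of Rnu11 exceeded its non-crosslinked ratio by 2.10 on the log2 scale (SE 0.40, unadjusted p = 0.0014 in an edgeR fit of all 6 libraries), but the adjusted p of 0.326 did not pass. Within a library, Rnu11 gave 53.3 and 64.3 reads per 100 reads of Rnu12 in the crosslinked inputs and 117 and 140 in both crosslinked pull-downs, against 102 and 110 in the non-crosslinked input and pull-down. The crosslinked inputs were thus the libraries with the lowest share of Rnu11 relative to Rnu12, and no test of this ratio was made.

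Of the sums by name, U7 was the 1 with both pull-downs above both inputs, although its ratio did not pass. Rnu7 (chr6:124741225-124741286, 62 bases) had 37.5 and 20.8 RPM in the crosslinked inputs, 56.1 and 143 RPM in both crosslinked pull-downs, and 0.212 and 6.34 RPM in the non-crosslinked input and pull-down. The pull-downs differed between themselves by more than 2 times. The log2 ratio of 1.87 (SE 0.49, edgeR adjusted p = 0.0657) did not pass, while DESeq2 gave 2.11 and an adjusted p of 0.000324. It also passed without crosslinked input 1 (2.34, adjusted p = 0.00507), without crosslinked input 2 (1.52, 0.046) and without crosslinked pull-down 1 (2.41, 0.00222), but not without crosslinked pull-down 2 (1.03, 0.12). The non-crosslinked values rest on 84 reads in the pull-down and 3 reads in the input, a ratio of 30.1 with a 95% counting interval from 9.95 to 149.

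Per kilobase of annotated length, the mean level of the crosslinked inputs was 13598 RPM for Rnu5g, 9702 for Rnu1a1, 6440 for Rnu2-10, 3587 for Rnu12, 2855 for Rnu11, 470 for Rnu7 and 51.1 for Rnu6. These are levels after reads were divided among matching copies, so they understate families with many copies. In the same units Gm25099 stood at 16656. Among these named genes Rnu5g stood highest and Rnu6 lowest. In the non-crosslinked input Rnu5g (16390 RPM per kilobase) was again the highest of them, but Rnu7 (3.42) stood below Rnu6 (88.7), and Rnu11 (3274) above Rnu12 (2304). Neighbours in this order were not tested against each other.

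Of the 4 tested features of 141 bases, 2 rose and 2 were not called, against 6.44% of all tested features called higher. Gm24265 had 124 and 124 RPM in the crosslinked inputs, 75.1 and 218 RPM in both crosslinked pull-downs, and 95.4 and 23.1 RPM in the non-crosslinked pair, and Gm24407 had 94.8, 108, 56.6, 176, 73.2 and 16.0 RPM in the same order. Pull-down 1 lay below and pull-down 2 above the inputs in both. Gm23928 (0.489 and 0.504 RPM in the inputs, 5.41 and 3.75 RPM in the pull-downs) and Gm25514 (0.502, 0.623, 2.63 and 4.63 RPM), both annotated as pseudogenes, were called higher with log2 ratios of 3.26 and 2.77 (edgeR adjusted p = 0.000766 and 0.00663). Both had inputs under 1 RPM and reached the level for testing through their pull-downs. The 8 features of this length summed to a log2 ratio of 0.36 (SE 0.46, edgeR adjusted p = 0.687), which was 0.94 without pull-down 1 (adjusted p = 0.0403) and -0.62 without pull-down 2 (adjusted p = 0.217). These features were singled out after their values were seen.

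Over single features, 40 of the 161 tested snRNA features rose and 14 fell with pull-down from crosslinked cells, by edgeR at an adjusted p under 0.05. Of these 40, 19 had an input mean under 1 RPM and entered the test through their pull-downs, so the filter fixed their direction. Across all 39872 tested features of the series, 6.44% were called higher and 3.5% lower, with a median log2 ratio of -0.21, which TMM factors moved to -0.00439. DESeq2 called 44 higher and 8 lower, against 6.29% and 0.597% of all tested features, and limma 41 and 15, against 6.32% and 5.79%. Each pull-down exceeded each input for 51 tested snRNA features and stayed under each for 35, against 10.8% and 57.7% of all tested features. The number called lower depended on single libraries, being 75 without crosslinked input 2 (against 5.37% of all tested features) and 7 without crosslinked pull-down 1 (against 2.8%). The number called higher ranged from 38 to 48 when 1 crosslinked library was left out, and that of all tested features from 6.44% to 6.91%.

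The 14 falls were all among the abundant snRNAs, at a share close to that of other abundant features, and nearly all rises were among the less abundant copies. Features of 107 bases, which hold few reads each, were also called lower without crosslinked input 2, as given above, and with a replicate block. The 44 features with a mean of 100 RPM or more over all 6 libraries held 95.9% of the snRNA reads, and the 12 highest held 45.3%. Among these 44, 14 fell (31.8%) and 2 rose (4.55%), while 30.2% of all 281 tested features in that range fell and 20.6% rose. Their median difference of pull-downs and inputs on the log2(RPM + 1) scale was -0.78, against -0.35 for all features. Among the 24 features between 10 and 100 RPM, 12 rose and 0 fell (0 at an unadjusted p under 0.05, and 0 by DESeq2 or limma), with a median of 1.48 against -0.31 for all 1769 features, of which 13.2% rose and 8.88% fell. Of the 90 tested features between 1 and 10 RPM, 24 rose and 0 fell (3 at an unadjusted p under 0.05, and 0 by DESeq2 or limma). Inputs were under 1 RPM for 16 of the 90, which entered the test through their pull-downs. Of all 31633 features in that range, 6.61% rose and 3.39% fell. Yet the median of the 90 was -0.70, against -0.21 for all features. The median of the 90 was 0.02 without crosslinked input 1 and -1.23 without crosslinked input 2.

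The ranges contain the pull-downs themselves, and a range set by the non-crosslinked libraries changed part of the picture. With ranges from the mean of the 2 non-crosslinked libraries, added after the data were seen, the median of the highest range was -0.93 and 14 of its 41 features (34.1%) fell, close to the 32.7% of all tested features in that range. The 56 features between 10 and 100 RPM then had a median of -0.76 against -0.33 for all features, and their 6 rises (10.7%) were below the 16.2% of all features. The 42 tested between 1 and 10 RPM had a median of 0.37 against -0.25, with 15 rises (35.7%) against 8.13%. The 22 tested features under 1 RPM included 18 rises, against 3.97% of all features in that range, and 17 of the 22 had inputs under 1 RPM and entered the test through their pull-downs. Of the features that rose, 19 had less than 1 RPM in the mean of the inputs and entered the test through their pull-downs, so the filter fixed their direction. The other 21 had 1 RPM or more in the inputs.

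**Figure D3:**
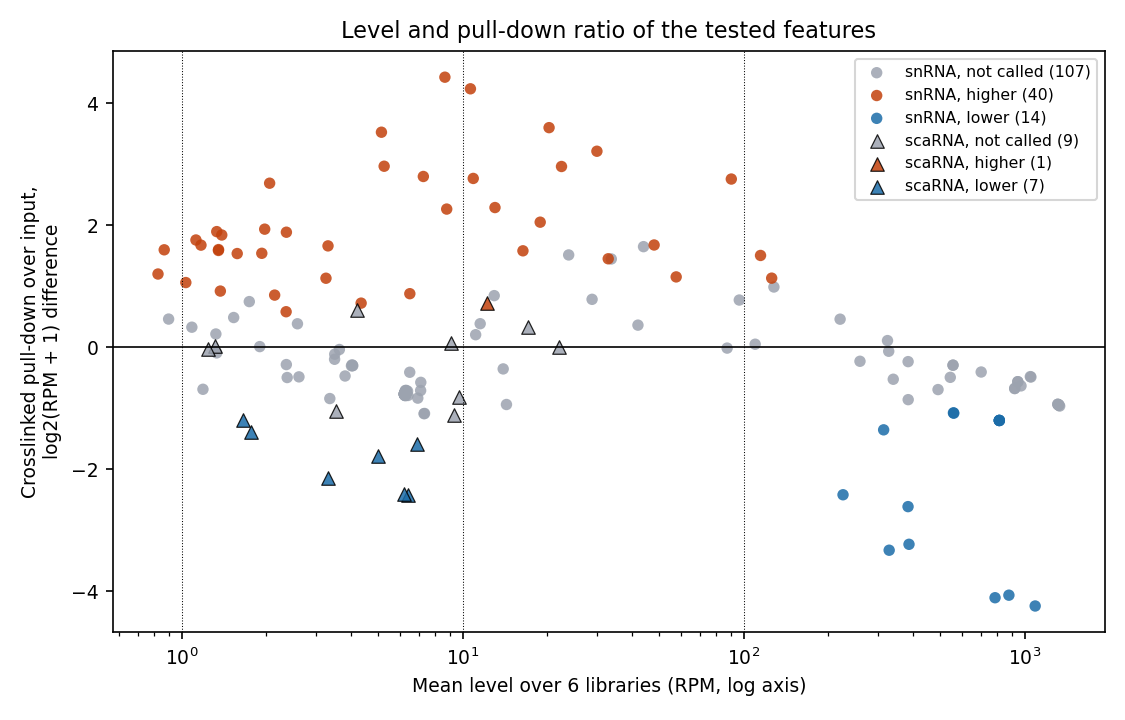
Mean RPM over the 6 libraries (log axis, dotted lines at 1, 10 and 100 RPM) against the crosslinked pull-down over input difference on the log2(RPM + 1) scale for the 178 tested features (circles, snRNA; triangles, scaRNA; colours give the edgeR call). The 14 snRNA features called lower all lie above 100 RPM, and 38 of the 40 called higher lie below it.

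Features with the lengths of the Rnu1 genes are described next, with no test of their own. The 19 tested features of 164 to 166 bases with 100 RPM or more had a median log2 ratio of -0.50, and 0 were called higher by edgeR (1 at an unadjusted p under 0.05, and 1 by DESeq2 and 1 by limma). Of the 10 tested with less than 100 RPM, 8 rose, but 4 of these 8 had inputs under 1 RPM and entered the test through their pull-downs. The other 6 had inputs of 1 RPM or more, and 4 of them rose. Of all tested features, 20.6% rose at 100 RPM or more, 13.2% between 10 and 100 RPM and 6.61% between 1 and 10 RPM. The mean that sets the ranges includes the pull-downs.

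The 5 largest rises were of copies with less than 1 RPM in the inputs. All 5 belong to the 19 features that entered the test through their pull-downs, so their direction was fixed by the filter and their values are a description. Gm24145 (chr16:11167105-11167267, 163 bases) had 0.00506 and 0.0608 RPM in the crosslinked inputs, 8.68 and 3.57 RPM in both crosslinked pull-downs, and 0.00214 and 0.0344 RPM in the non-crosslinked pair. Gm25630 had 0.121 and 0.194 RPM in the inputs and 35.5 and 15.9 RPM in the pull-downs, with 0.00236 and 0.168 RPM in the non-crosslinked pair. Gm25581 (chr4:39259631-39259794) had 0.173 and 0.264 RPM in the inputs, 21.8 and 7.58 RPM in the pull-downs, and 0.0295 and 1.00 RPM without crosslinking. All 3 were at or near 0 in the inputs, and pull-down 1 held more than 2 times the level of pull-down 2 in each. Gm22155 (chr6:6924116-6924279) had 0.609 and 0.594 RPM in the inputs, 40.1 and 21.1 RPM in the pull-downs, and 0.0431 and 1.58 RPM without crosslinking, while Gm23345, annotated as a pseudogene, had 0.112, 0.0643, 1.73, 2.96, 0.00372 and 0.337 RPM in the same order.

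The edgeR log2 ratios of these 5 features ran from 7.52 (SE 0.93, adjusted p = 0.00366) for Gm24145 to 4.78 (SE 0.55, adjusted p = 0.00269) for Gm23345. That of Gm24145 was 6.70 without crosslinked input 1, 9.69 without crosslinked input 2, 6.75 without pull-down 1 and 2.69 by limma on log2(RPM + 1). Without pull-down 1, Gm25630 went from 7.29 to 6.61 and Gm25581 from 6.08 to 5.15. The fitted values depend on the prior for such small inputs, so ratios of pooled reads were taken as well. Gm24145 had 196 reads in both pull-downs together and 1 in both inputs, a ratio of 220 with a 95% counting interval from 39.1 to 8740. Gm25630 had 824 against 6 reads (154, interval 70.6 to 422), Gm25581 471 against 8 (66.1, 33.3 to 154), Gm22155 979 against 22 (50.0, 32.8 to 80.1) and Gm23345 75 against 3 (28.1, 9.25 to 139). These intervals cover counting error only, since PCR copies of a read are not separate molecules, and they were taken on features already selected for high pull-downs.

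Other copies that rose had more reads in the inputs. Gm23240 (chr1:48462173-48462293, annotated as a pseudogene of 121 bases) had 18.7 and 21.9 RPM in the crosslinked inputs, 158 and 128 RPM in both crosslinked pull-downs, and 12.2 and 204 RPM in the non-crosslinked pair (log2 ratio 2.91, SE 0.21, edgeR adjusted p = 0.000461). Its non-crosslinked pull-down was the highest of its libraries. Gm24763 (chrX:43254046-43254235, 190 bases) had 6.67 and 6.87 RPM in the inputs, 68.2 and 51.8 RPM in the pull-downs, and 0.0707 and 1.23 RPM without crosslinking (log2 ratio 3.24, SE 0.21, edgeR adjusted p = 0.000368). The 2 rises at 100 RPM or more were Gm24046, with 90.0, 61.3, 228 and 198 RPM in the crosslinked libraries and 4.91 and 107 RPM in the non-crosslinked pair, and Gm25813, with 110, 81.1, 241, 180, 33.8 and 108 RPM. Gm25813 (log2 ratio 1.23, edgeR adjusted p = 0.0253) lost its call without crosslinked input 2 (adjusted p = 0.0591) or without pull-down 1 (0.0515). These 4 features were picked after their values were seen.

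RefSeq lists 119 of the 794 snRNA features as pseudogenes and 601 as snRNA genes. Of 18 tested pseudogenes 15 rose and 0 fell, and of 132 tested snRNA genes 22 rose and 12 fell, against 6.44% higher and 3.5% lower over all tested features. Inputs were under 1 RPM for 8 of the 18 pseudogenes, which entered the test through their pull-downs and were all called higher. Among those with 1 RPM or more in the inputs, 7 of 10 pseudogenes and 12 of 121 snRNA genes rose, and the difference between these shares was not tested. The 7 pseudogenes had log2 ratios from 1.09 to 4.20, the highest being Gm22126 with 3.28 and 2.54 RPM in the inputs and 71.1 and 29.8 RPM in the pull-downs (4.20, or 3.46 without pull-down 1). The rises lay on 17 chromosomes and the falls on 5 (for members with a RefSeq entry).

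Pull-down 1 was the higher pull-down for 28 of the 40 features that rose, and pull-down 2 for 13 of the 14 that fell. The contrast of pull-down to input was thus larger in pull-down 1 for most called features.

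Whether the differences needed crosslinking was asked next. All 40 features that rose with crosslinking were also above their input in the non-crosslinked pair, as were 111 of the 161 tested snRNA features (68.9%) and 15.7% of all tested features. Of these 40, 18 averaged under 1 RPM in the non-crosslinked libraries. A mean under 1 RPM in the crosslinked inputs was found for 19, which entered the test through their pull-downs. For Gm24145 both non-crosslinked values were below 1 read. All 14 features that fell were below their input in the non-crosslinked pair, as 84.3% of all tested features were. The median log2(RPM + 1) difference of the rising features was 1.10 in the non-crosslinked pair, and 22 of them reached 1 or more. The falling features had a median of -3.30 there. Over all 161 tested snRNA features the non-crosslinked median on this scale was 0.42, while the median edgeR log2 ratio with crosslinking, an unlike measure, was -0.45. Of the 61 tested features of 107 bases, 57 lay below 0 by edgeR with crosslinking and 56 above 0 on this scale without it. Reads were divided among these copies, so they are not 61 separate measurements. The edgeR log2 ratio of the 107-base sum was -0.71, and 0.29 without crosslinked input 1. The sum of the 116-base features stood at -5.54 without crosslinking and at -3.68 with it on the log2(RPM + 1) scale, and Rnu5g at -6.07 and -4.06.

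The difference between the crosslinked and the non-crosslinked log2 ratio, added after the data were seen, was called for 0 of the 39872 tested features by edgeR, and 13.6% had an unadjusted p under 0.05. Of the 178 tested members, 29 (16.3%) had an unadjusted p under 0.05 and 0 were called, with a smallest adjusted p of 0.335. No other tool was run on it. For the sum of U5 the crosslinked ratio exceeded the non-crosslinked one by 2.04 (SE 0.47, adjusted p = 0.326), and for U1 the difference was -0.0063 (SE 0.40). Over all tested features the median of this difference was 0.56.

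Of the 178 members, 35 (19.7%) had more reads in the crosslinked inputs than in the non-crosslinked input by edgeR and 0 had fewer, against 35.7% and 0.218% of all tested features. Rnu7 had the values given above, 37.5 and 20.8 RPM against 0.212 RPM. The non-crosslinked input is 1 library that was assumed to vary like the replicated groups, so crosslinking and that library cannot be told apart.

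**Figure D4:**
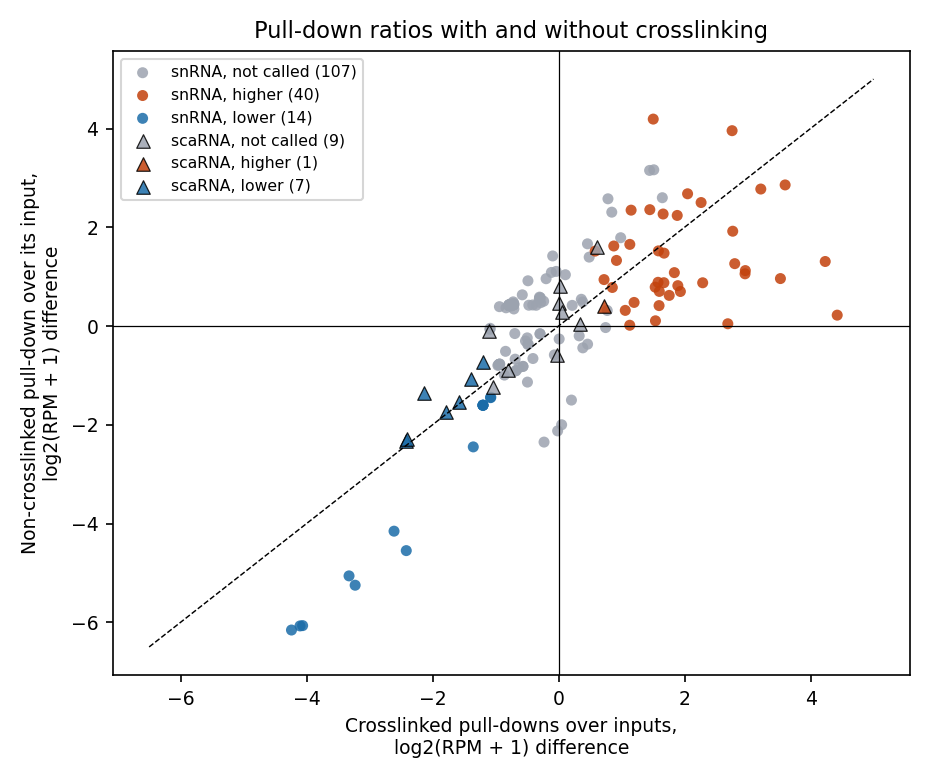
Pull-down over input on the log2(RPM + 1) scale in the crosslinked libraries (horizontal) and in the non-crosslinked pair (vertical) for 178 tested features, with equality as a dashed line (circles, snRNA; triangles, scaRNA; colours give the edgeR call in the crosslinked libraries). Every called feature has the same sign on both axes, and the lowest points, Gm25099, Gm25313 and Rnu5g, lie below the dashed line.

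The scaRNAs, guides for snRNA modification, mostly fell or did not pass. Of 17 tested scaRNA features 7 fell and 1 rose by edgeR, against the 3.5% and 6.44% of all tested features given above. With TMM factors 6 fell and 2 rose, and with reads without annotation in the library size 7 fell and 0 rose. Reads were within 0.001 of a whole number in every library for 13 of the 17 (but for 1 of the 161 tested snRNA features), so most of the scaRNA values were not shaped by dividing reads among copies.

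Scarna8 (chr4:86586453-86586570, 118 bases) had 7.10 and 5.81 RPM in the crosslinked inputs, 0.372 and 1.07 RPM in both crosslinked pull-downs, and 4.45 and 1.14 RPM in the non-crosslinked pair, a log2 ratio of -3.06 (SE 0.35, edgeR adjusted p = 0.0026). Scarna3b had 2.86 and 2.66 RPM in the inputs, 0.434 and 0.442 RPM in the pull-downs, and 3.18 and 0.987 RPM without crosslinking (-2.54, SE 0.20, edgeR adjusted p = 0.00057). Scarna3a had 7.33, 8.42, 0.931, 2.40, 8.90 and 1.97 RPM in the same order (-2.15, SE 0.36, edgeR adjusted p = 0.0134). These 3 guides lay below their inputs in every pull-down without overlap. The pair Gm25820 (9.76, 9.99, 0.321, 2.12, 14.3 and 2.05 RPM) and Gm25820-2, which has nearly the same counts, fell by 2.91 and 2.95 on the log2 scale (edgeR adjusted p = 0.0207 and 0.0174). Gm23751 (log2 ratio -1.67, edgeR adjusted p = 0.0266) and Gm25492 (-1.72, 0.0124) completed the falls. Without pull-down 1 the ratios were -2.09 for Gm25820 and -2.14 for Gm25820-2. Without pull-down 2 they were -4.88 and -4.85, and those of Scarna8, Scarna3a and Gm23751 were -4.01, -3.00 and -2.37. Gm23751 lost its edgeR call with TMM factors (-1.46, adjusted p = 0.0689). DESeq2 called 4 of the 7, leaving out Gm25820, Gm25820-2 and Gm25492.

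All 6 scaRNAs that fell and have a RefSeq length measured 118 to 136 bases. Within those lengths 8 were tested, while 6 tested scaRNAs were longer and 1 was shorter. In all 7 that fell, pull-down 2 was above pull-down 1. All 7 were also below the input in the non-crosslinked pair, as 84.3% of all tested features were.

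The scaRNA with the highest mean, Scarna2 (chr3:108554342-108554402, 61 bases), had 24.9 and 26.6 RPM in the crosslinked inputs, 20.5 and 32.5 RPM in the pull-downs, and 11.2 and 15.9 RPM in the non-crosslinked pair. Its groups overlapped (log2 ratio 0.13, SE 0.25, edgeR adjusted p = 0.79), and without pull-down 2 the ratio was -0.25. Gm26083 had 17.2 and 15.0 RPM in the inputs and 21.2 and 19.9 RPM in the pull-downs (log2 ratio 0.44, edgeR adjusted p = 0.163). Gm22009 (chr3:69085105-69085447, 343 bases) was the 1 scaRNA that rose, with 10.4 and 9.56 RPM in the inputs, 20.1 and 14.5 RPM in the pull-downs, and 7.84 and 10.7 RPM in the non-crosslinked pair (log2 ratio 0.88, SE 0.20, edgeR adjusted p = 0.0406). Leaving out crosslinked input 1 (adjusted p = 0.114), crosslinked input 2 (0.127) or pull-down 1 (0.0777) ended this call.

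Scarna13 lay below its inputs at 4.19 and 9.16 RPM against 14.7 and 14.6 RPM, but its log2 ratio of -1.04 (edgeR adjusted p = 0.129) passed, of the alternatives run, only without pull-down 2 (-1.72, 0.0019). Gm22767, with 13.9 and 14.9 RPM in the inputs and 5.52 and 10.9 RPM in the pull-downs (log2 ratio -0.72, edgeR adjusted p = 0.234), also passed without pull-down 2 (-1.31, 0.00769). Gm25395 had 6.99, 11.3, 8.07 and 10.8 RPM, and its groups overlapped (log2 ratio 0.13, edgeR adjusted p = 0.815).

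**Figure D5:**
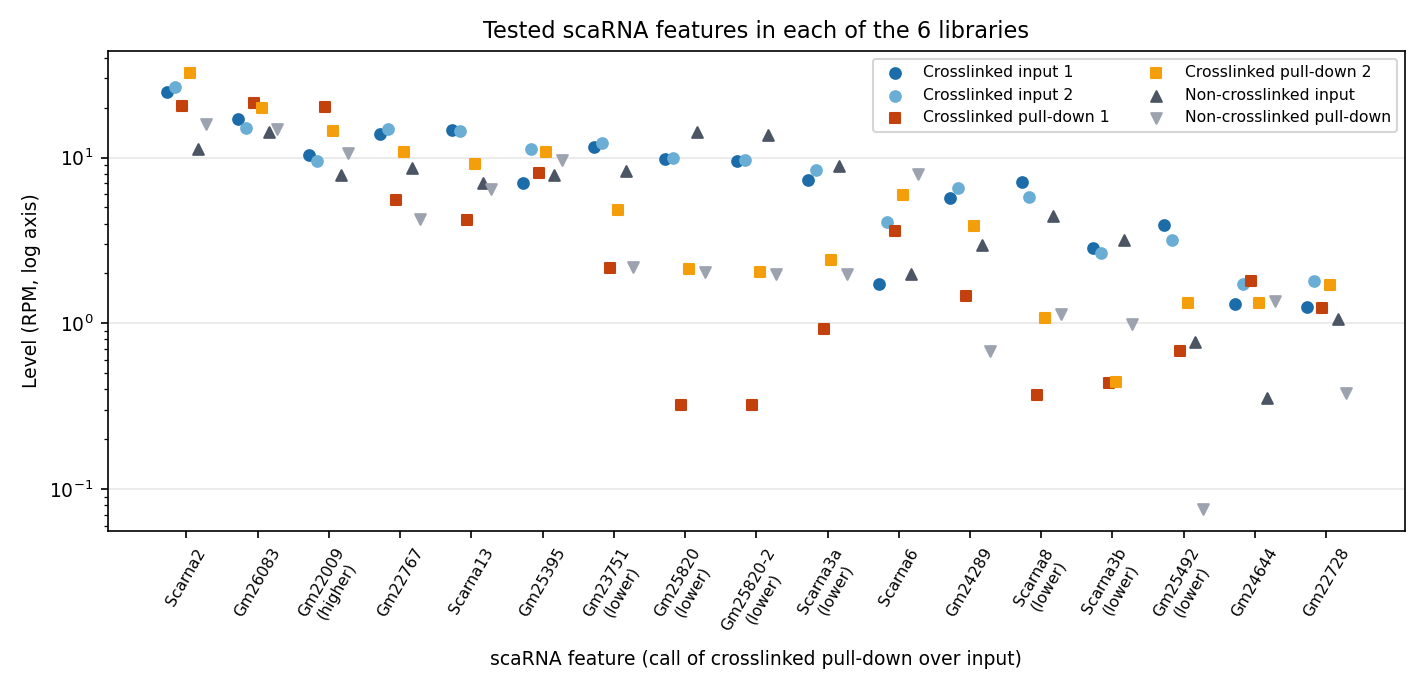
Level in RPM (log axis) of the 17 tested scaRNA features in each of the 6 libraries, ordered by mean, with the edgeR call of crosslinked pull-down over input under the name (circles, crosslinked inputs; squares, crosslinked pull-downs; triangles, non-crosslinked input and pull-down). The 7 features called lower have both pull-downs below both inputs, and Scarna2, at the left, does not separate.

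The scaRNA class also holds Mir1839, which RefSeq lists as a microRNA gene and which is the 1 member with an RNA sequence in the RefSeq tables used here. Its mature RNA (chr7:81529919-81529940, plus strand, GRCm38.p6) is shown to identify this member, with the seed, bases 2 to 8, in capitals.
mmu-miR-1839-5p: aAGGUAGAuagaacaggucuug
The gene had 22 and 26 reads in the crosslinked inputs, 0 and 2 in both crosslinked pull-downs, and 10 and 2 in the non-crosslinked input and pull-down. It was below the level required for testing.

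Genes for the proteins of snRNPs and scaRNPs were not called by edgeR, while limma called 4 lower. The list of 48 genes (Sm and Lsm rings, proteins of the U1, U2, U4/U6.U5 and U7 particles, the SMN assembly complex, and Cajal body proteins) had pre-mRNA features for 47 and exons for 1, of which 16 were tested. By edgeR 0 were higher and 0 lower, with 13 of 16 ratios below 0 and a median of -0.51. Among the 15 tested pre-mRNA features of the list, 0 were higher and 7 lower at an unadjusted p under 0.05, DESeq2 called 0 and limma called 4 lower. Of all 2561 tested pre-mRNA features, DESeq2 called 0.156% and limma 19.3% lower. By edgeR 12 of the 2561 were called higher and 294 (11.5%) lower, with a median of -0.52. Prpf8, the large scaffold of the U5 particle, had 20.6 and 18.4 RPM in the crosslinked inputs, 9.68 and 14.3 RPM in the pull-downs, and 23.7 and 18.1 RPM in the non-crosslinked pair (log2 ratio -0.61, edgeR adjusted p = 0.174). Snrnp200, the helicase of that particle, had 8.07, 7.38, 5.71, 4.93, 9.54 and 6.83 RPM in the same order (log2 ratio -0.45, edgeR adjusted p = 0.149).

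Enrichment ratios of 170 snRNA and 18 scaRNA features stand in the authors' deposited table, and how these were calculated is not given in the sources used here. The authors' deposited table gives a median ratio of 1.47 for snRNA, 0.792 for scaRNA and 1.37 for all 216085 features. In it, the authors' deposited table, ratios above 1 belong to 99 of the 170 snRNA and 7 of the 18 scaRNA features. The median over all features is above 1 too, so most features of the authors' deposited table exceed 1. Of the 170 snRNA features, 13 are among the highest 1000 of all 216085. Gm24145 (1917, rank 4), Gm25630 (350, rank 31) and Gm25581 (140, rank 122) lead the snRNAs of the authors' deposited table, and Rnu5g (0.123) and Scarna8 (0.0715) lie near its lower end. Other features differ from the calls made here. Gm25813 (0.826) and Gm24763 (1.40) were called higher here but do not stand out in the authors' deposited table, and Scarna13 (0.0348), not called here, lies below Scarna8 in it.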

How the data were processed

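Members and lists were chosen with earlier results of these data known. Each of the 6 libraries has a deposited pileup of expected counts, in which the authors divided reads that match several features into fractions, and of RPM, in which the authors scaled all reads to 1000000, per the file values. The authors' deposited table gives an enrichment ratio without its formula. The submitters' processing notes name bcl2fastq 2.19, STAR 2.5.2b, bedtools 2.29.0 and mm10, with no roles. Whether counting used strand is not given in the sources used here, so a feature and an antisense partner may share reads.

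Counts were rounded and tested with edgeR 4.0.16 (quasi-likelihood, R 4.3.3; annotated reads as library size) on the 39872 features that averaged 1 RPM or more in crosslinked libraries, with Benjamini-Hochberg adjustment over all of them. Every adjusted p is from edgeR unless another tool is named. Alternatives were DESeq2 1.42.0, limma 3.58.1 on log2(RPM + 1), TMM factors, other filters, a replicate block and leaving out each crosslinked library. The edgeR script was tested on simulated counts. Unannotated reads, 6.99% to 14.4%, stayed out of tests. Replicate numbers were not taken to pair libraries. Intervals are 95% and cover counting error only. Named features were the sums by name, the 12 snRNAs of highest mean, the 5 largest changes each way, the 8 highest scaRNAs with every called one, and Prpf8 and Snrnp200, and any other feature was chosen after its values were seen. The marker and protein gene lists were read from pre-mRNA features, or exons where those were missing.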

Additional observations from a re-analysis of the deposited data

How the results depend on the processing

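Of 871 comparisons of 69 single values and sums with an alternative, 746 kept direction and side of the threshold, 75 lost a call, 36 gained one and 14 reversed. Fitting without a filter (942743 features) called 0 of all features in either direction by edgeR, snRNA and scaRNA included. At an unadjusted p under 0.05 stood 122 snRNA higher and 36 lower (23.5% of 671), against 4.44% of all features. That fit also ended the calls of U2 (-1.12), U5 (-3.98), U12 (-1.32) and the 116-base sum (-3.57), whose values hardly moved. A minimum of 5 RPM left 20 snRNA higher and 3 scaRNA lower. DESeq2 called 8 snRNA and 4 scaRNA features lower, gave U2 -0.90 and U11 0.058, and called U7 at 2.11. TMM factors gave 2 scaRNA rises, U11 at 0.062 and U12 at -1.10. Library sizes with unannotated reads gave 0 scaRNA rises and called the sums of 187 or 191 bases (-0.84) and of no RefSeq length (-0.96). Limma called these too (-0.83 and -0.95), as well as the sum without a family in its name (-0.83), and gave Gm24407 -0.015. The 187 or 191-base sum (-0.75) was also called at the 5 RPM minimum.

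The replicate numbers do not establish a pairing (correlation of deviations 0.111). With a replicate block 49 snRNA features were called lower (against 4.15% of all features), 37 of them of 107 bases, and 12 of the 14 lower calls were shared. The block also called the U6 sum (-1.05) and the sum without a RefSeq length (-0.86).

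Leaving out 1 crosslinked library gave 38 to 48 snRNA rises, 7 to 75 snRNA falls (48 of the 75 of 107 bases), 0 to 1 scaRNA rises and 7 to 10 scaRNA falls. The snRNA share ratio ran from 0.467 to 0.658. Sums ran from -0.75 to -0.24 for U1, -1.26 to -0.95 for U2, -4.29 to -3.72 for U5, -1.73 to 0.028 for U6, 1.03 to 2.41 for U7, -0.39 to 0.11 for U11, -1.65 to -0.88 for U12 and -0.96 to -0.50 without a family name. By length they ran from -1.30 to 0.29 (107 bases), -3.96 to -3.26 (116), -0.62 to 0.94 (141), -0.81 to -0.28 (164 to 166), -0.90 to -0.59 (187 or 191) and -1.05 to -0.67 (no RefSeq length). Single features that changed sign ran from -0.25 to 0.44 (Scarna2), -0.18 to 0.54 (Gm25395), -0.45 to 0.047 (Rnu1b1), -1.73 to 0.027 (Rnu6), -0.64 to 0.92 (Gm24265) and -0.76 to 0.90 (Gm24407). Gm25395 was -0.11 without crosslinked pull-down 2. Medians by range ran from -1.01 to -0.62 (100 RPM or more), 1.23 to 1.73 (10 to 100 RPM) and -1.23 to 0.017 (1 to 10 RPM). With ranges from the non-crosslinked libraries the last 2 were -0.76 and 0.37, and a pseudocount of 5 gave 1.30 for the 10 to 100 RPM range and -0.39 for 1 to 10 RPM, which was -0.87 with 0.1. The no-filter fit tests many more features, and the cause of these changes, those of that fit included, was not tested.

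One read was worth 0.0543 to 0.0759 RPM, and 2 libraries a group leave little room to measure spread.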
